A study of Equus caballus with 19 samples.

Results

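The genes TNFAIP3, CYLD, TNIP1, TNIP2, TRAF1, BIRC3, BCL3, NFKBID and MAP3K8 encode products that restrain or relay NF-κB signalling. TNFAIP2 is described with them as a gene induced by TNF. These 10 genes were followed in equine tenocytes stimulated with IL-1β. They were taken by gene name from both count tables, which list 29196 gene names each, and all 10 passed the filter on low values in both batches.

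NF-κB is a family of transcription factors held in the cytosol by IκB proteins until a receptor such as the IL-1 receptor triggers their release through chains of ubiquitin and the IKK kinases. Several of its target genes encode proteins that act back on the same route. Some remove or bind ubiquitin chains, some join receptor complexes as adaptors, and some bind NF-κB dimers in the nucleus.

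Tenocytes of wild-type genotype from the superficial digital flexor tendon of adult Thoroughbred horses were seeded in bovine type 1 collagen gels, a 3D culture, and harvested for bulk RNA sequencing at day 14. In the first batch, 5 tenocyte lines (lines 1 to 5) were each cultured as a control without cytokine and with 1 nM IL-1β, which gave 10 libraries. Lines 6 to 8 made up the second batch of 9 libraries, in which each of the 3 lines had a control, a culture with the same dose of IL-1β, and a further culture, to which the interleukin 1 receptor antagonist IL1Ra (100 ng/ml) was given together with that dose. Each line came from 1 donor and gave 1 library per condition. The cells were isolated and passaged tenocytes, for which no measure of purity is given. The ages of the individual donors are not given in the sources used here.

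The values are normalised counts, which summed per library to between 43393903 and 49197980 in the first batch and to between 24964149 and 34602014 in the second. The batches were normalised separately, so levels are compared only within a batch. The tenocyte genes COL1A1, COL1A2 and DCN were at 18227 normalised counts or more in every library, whereas TNMD, a marker of mature tendon cells, was listed at 0 in all first-batch libraries and reached at most 1.00 in the second. The levels of the tenocyte genes differed between conditions in both directions. In the first batch COL1A1 spanned 453618 to 875669 in the controls and 89921 to 297566 with IL-1β, and the tendon transcription factor SCX spanned 822 to 2110.1 and 9.69 to 205, whereas DCN spanned 44076 to 93119.6 and 67407.5 to 132486. The second-batch controls differed widely in several tenocyte markers. Among them SCX spanned 105 to 4720, MKX 11.5 to 4059, COMP 131 to 51392 and THBS4 14.1 to 632. Of the 9 leukocyte markers, the pan-leukocyte gene PTPRC reached at most 3.64 in first-batch libraries and 6.46 in second-batch libraries, and CD3E, CD79A and TYROBP did not pass 1.07 in any library. The summed level of the 9 markers spanned 111 to 2134 in the first-batch controls and 315 to 3722 with IL-1β. Between these conditions CD68 spanned 56.4 to 173 and 296 to 1359, CD14 reached 1947 and 2811, and LAPTM5 spanned 33.2 to 114 and 4.20 to 53.1. In the second batch the sum spanned 244.5 to 1371 in the controls, 677 to 3139 with IL-1β and 734 to 2066 with IL1Ra added. The part of these shifts in the results for the feedback genes was not tested. In bulk RNA, fewer cells of a type and less RNA per cell cannot be told apart.

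The first comparison asks how 14 days of IL-1β changed these genes. IL-1β raised 5 of the 10 genes in the first batch: TNFAIP3, BIRC3, MAP3K8, TNIP1 and NFKBID. A gene was called differentially expressed (DE) when the limma test gave a Benjamini-Hochberg adjusted p value under 0.05 over all genes tested and the log2 fold change was at least 1 in size. Fold changes are differences of mean log2(normalised count + 1). None of the 10 was DE in the downward direction, although TRAF1 fell by less than the fold threshold. Across all 14719 genes tested, 4.91% were DE and higher and 7.9% were DE and lower. The 10 genes were chosen with earlier results of these data known, so their counts beside such shares are a description. By the adjusted p value alone, 6 of the 10 genes passed against 27.7% of all genes. The median log2 fold change of the 10 was 0.92, and that of all genes tested was -0.0034. In 4 of the 10 genes every IL-1β library was above every control, which held for 9.34% of all genes with values, and in 1 every IL-1β library was below every control, which held for 10.2%.

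**Figure D1:**
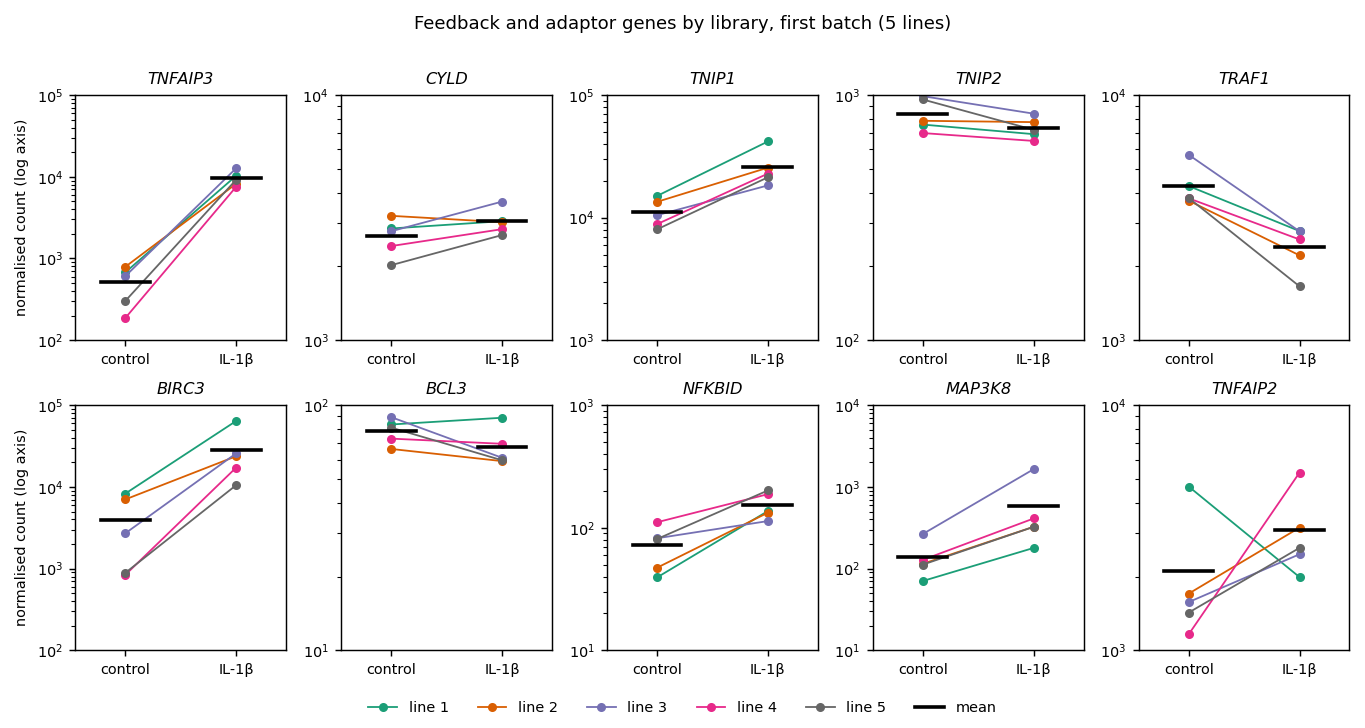
Normalised counts (log axis) of the 10 genes in the first batch, with 1 point per library, a line joining the control and IL-1β cultures of each of the 5 tenocyte lines, and a black bar at the mean. TNFAIP3, BIRC3, TNIP1 and NFKBID stood higher with IL-1β in all lines without overlap, TRAF1 stood lower in all lines, and TNFAIP2 moved in the opposite direction in line 1 to the other 4 lines.

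TNFAIP3 encodes A20, an enzyme that edits and removes ubiquitin chains and is the best known brake on NF-κB signalling. In lines 1 to 5 its normalised counts were 676, 792, 608, 187 and 302 in the controls. With IL-1β they were 10304, 8215, 12732, 7551 and 9216. The lowest stimulated culture was thus far above the highest control. TNFAIP3 had the largest log2 fold change of the 10 genes, 4.39 (SE 0.366, n = 5 lines, adjusted p = 4.49e-05). The increase was smallest in line 2, at 3.37 on the log2 scale, and largest in line 4, at 5.33. The SD of the log2 values was 0.88 among the controls and 0.29 among the stimulated cultures.

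CYLD encodes a second deubiquitinase that removes activating ubiquitin chains. Its controls spanned 2023 to 3216 normalised counts, and its IL-1β libraries spanned 2684 to 3675.5. CYLD was higher in lines 1, 3, 4 and 5, and its fitted change of 0.21 (95% confidence interval -0.08 to 0.50, adjusted p = 0.266) did not pass the test. Of the pair of deubiquitinases, only TNFAIP3 was thus called in the first batch.

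TNIP1 and TNIP2 encode ABIN1 and ABIN2, ubiquitin-binding proteins that partner A20. TNIP1 counts in lines 1 to 5 were 15028, 13452, 10461, 8846 and 8021 in the controls. The stimulated cultures held 41814, 25559, 18315, 22857 and 21326. Every stimulated culture was above every control, and line 1 was the highest in both conditions. TNIP1 rose, with a log2 fold change of 1.20 (SE 0.24, adjusted p = 0.00486). TNIP2 was lower with IL-1β in 5 of 5 lines, but by little: its controls spanned 699.9 to 989.8 and its IL-1β libraries 649.9 to 839.7. Its log2 fold change of -0.18 (95% confidence interval -0.46 to 0.10, adjusted p = 0.326) did not pass the test.

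BIRC3 and TRAF1 encode proteins that sit together in TNF receptor family complexes, BIRC3 (cIAP2) as a ubiquitin ligase and TRAF1 as an adaptor without ligase activity of its own. BIRC3 counts in lines 1 to 5 were 8299, 7041, 2710.1, 840.4 and 889 in the controls. After stimulation they were 64249, 23792, 25777, 17279.5 and 10527. The lowest stimulated culture was above the highest control, but the controls themselves differed 9.86-fold. BIRC3 rose with a log2 fold change of 3.18 (SE 0.718, adjusted p = 0.00855). It was 1.76 in line 2 and 4.36 in line 4, the same lines that gave the smallest and largest increases of TNFAIP3.

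TRAF1 moved the other way. Its controls in lines 1 to 5 were 4255, 3709, 5705, 3792 and 3803 normalised counts. After IL-1β they were 2787, 2218, 2781, 2576 and 1658. TRAF1 was lower in every line, and the highest stimulated culture was below the lowest control. It fell by 0.83 on the log2 scale (SE 0.168, adjusted p = 0.0051), which passed the adjusted p value but not the fold threshold for DE.

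BCL3 and NFKBID encode nuclear IκB proteins, which bind NF-κB dimers on DNA instead of holding them in the cytosol. NFKBID counts in lines 1 to 5 were 39.3, 47.2, 82.2, 111 and 81.0 in the controls. The IL-1β cultures held 137, 133, 113, 188 and 202. The groups did not overlap, although the lowest stimulated culture (line 3) was close to the highest control (line 4). NFKBID rose with a log2 fold change of 1.15 (SE 0.315, adjusted p = 0.0205). This call was lost without line 1, where the log2 fold change was 1.00 and just under the threshold (adjusted p = 0.0581), without line 2 (adjusted p = 0.0693) and without line 5 (adjusted p = 0.0776). BCL3 was low in every library, from 66.3 to 89.4 in the controls and from 59.2 to 88.9 with IL-1β. Its log2 fold change of -0.22 (95% confidence interval -0.68 to 0.23, adjusted p = 0.456) did not pass the test.

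MAP3K8 encodes TPL2, a kinase that is kept inactive in a complex with the NFKB1 precursor and ABIN2 and acts on the MEK-ERK route once released. Its counts in lines 1 to 5 were 70.6, 115, 266, 128 and 112 in the controls. After stimulation they stood at 179, 326, 1651, 411 and 325. MAP3K8 was higher in 5 of 5 lines, and the groups overlapped only because the line 3 control stood above the line 1 stimulated culture. MAP3K8 rose with a log2 fold change of 1.73 (SE 0.547, adjusted p = 0.0377). The call was lost without line 2 (adjusted p = 0.0938), without line 4 (adjusted p = 0.106) or without line 5 (adjusted p = 0.108). In a fit that compared the 2 cultures of each line with each other (the line as a block), it passed at an adjusted p of 0.00129 and remained DE when any 1 line was left out.

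TNFAIP2 was first found as a TNF-induced gene, and its protein shapes membrane protrusions. Its counts in lines 1 to 5 were 4659.7, 1704, 1574, 1163 and 1426 in the controls. The IL-1β cultures of the same lines held 1989.8, 3168, 2467, 5313 and 2619. It was higher with IL-1β in lines 2 to 5 and lower in line 1, whose control held more TNFAIP2 than 4 of the 5 stimulated cultures. Over all lines the log2 fold change was 0.68 (SE 0.372, adjusted p = 0.204) and did not pass the test. Without line 1, the line that went the other way, it was 1.15 (adjusted p = 0.0113) and DE. In that fit 660 of 14789 genes were DE and higher.

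The lines differed more in some of these genes than in others. Among the first-batch controls the SD of log2 BIRC3 was 1.57, larger than in 96.9% of genes, whose median was 0.28. In the second-batch controls it was 2.29, with a 20.9-fold range over 3 lines. TNIP2, TRAF1, CYLD and BCL3 had control SDs of 0.22, 0.26, 0.26 and 0.17 in the first batch, below that median. After subtracting each condition's mean, BIRC3 correlated across libraries with TNIP1 (Pearson's r = 0.85 over 10 first-batch and 0.77 over 9 second-batch libraries) and with TNFAIP3 (r = 0.81 and 0.74). NFKBID ran against TNFAIP3 (r = -0.78 and -0.70). These pairs were picked from all pairs of the 10 genes, and others were as alike in both batches. CYLD, for example, correlated with BIRC3 (r = 0.75 and 0.76) and with TNFAIP3 (r = 0.76 and 0.70). The libraries of a line share a donor, so these coefficients are a description of the lines sampled.

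The second batch repeated the IL-1β comparison in other donors and with fewer lines. TNFAIP3 was again DE and was the single DE gene among the 10, against 0.269% of 16705 genes DE and higher. With the line as a block, TNFAIP3 and NFKBID were DE, 2 of the 10 against 2.59% of all genes. By the adjusted p value alone and with the line as a block, TRAF1 passed as well, which made 3 of the 10 against 6.1% of all genes in either direction. Levels of all 10 genes were compared in the same fit as the cultures that also received IL1Ra, so the comparisons with control share the 3 control libraries.

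**Figure D2:**
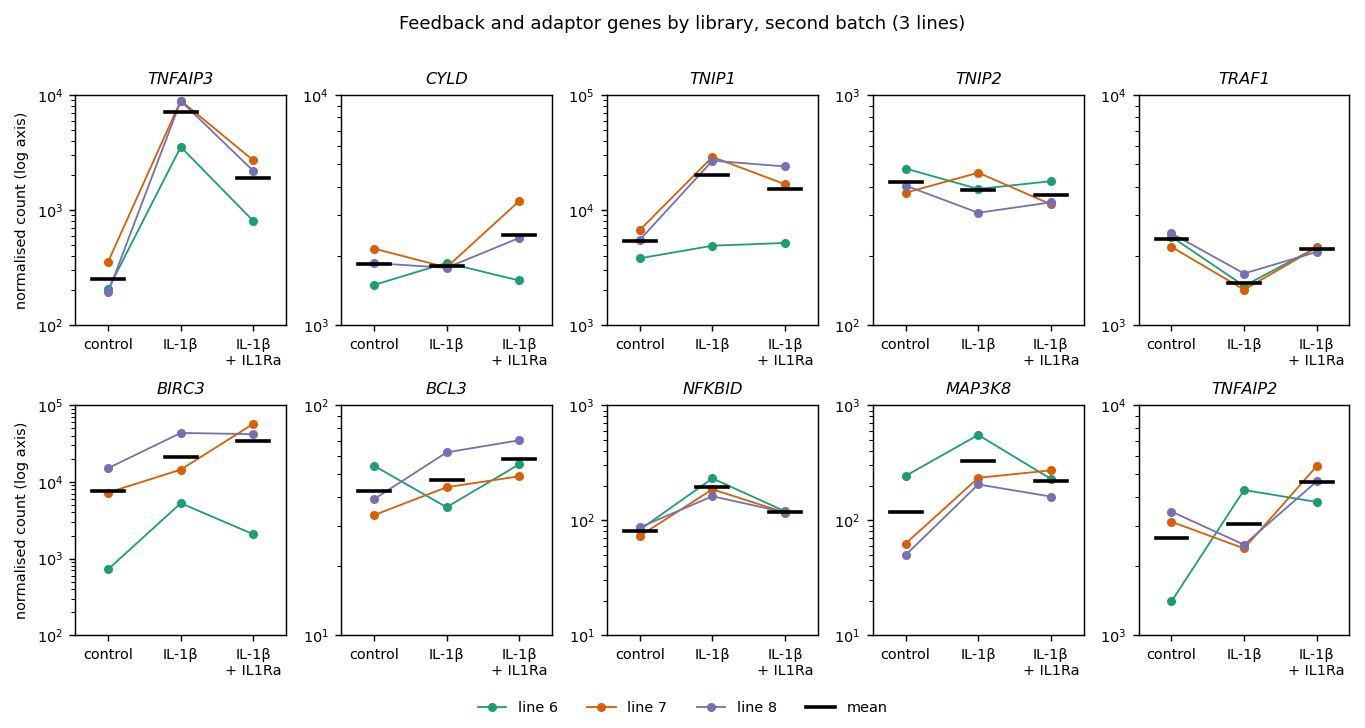
Normalised counts (log axis) of the 10 genes in the second batch, with 1 point per library, a line joining the control, IL-1β and IL-1β + IL1Ra cultures of lines 6 to 8, and a black bar at the mean. In all 3 lines TNFAIP3 and NFKBID stood highest with IL-1β and lowest in the control, with the IL1Ra culture in between, and TRAF1 showed the reverse order.

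TNFAIP3 counts in lines 6, 7 and 8 were 206, 356 and 193 in the controls. The IL-1β cultures held 3539, 8949 and 8889, and with IL-1β plus IL1Ra they were 804, 2706 and 2190.1. The 3 conditions did not overlap, with the IL1Ra cultures in between. The share of all genes whose groups did not overlap was not counted in the second batch. Groups of 3 libraries can also separate by chance. Non-overlap in this batch, here and for the genes below, is therefore a description without a background. TNFAIP3 rose with IL-1β by a log2 fold change of 4.75 (SE 0.537, n = 3 lines, adjusted p = 0.0171). It was not called without line 7 (adjusted p = 0.339) or without line 8 (adjusted p = 0.638), where no gene of the table was.

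NFKBID counts in lines 6, 7 and 8 were 82.8, 73.1 and 86.7 in the controls. With IL-1β they were 231, 186 and 162, and with IL1Ra added they were 119.7, 117 and 117. The controls and the IL1Ra cultures each lay within a narrow range, and the IL-1β cultures were above both. The difference between IL-1β and control was 1.23 on the log2 scale (SE 0.249, adjusted p = 0.0996). With the line as a block the adjusted p value was 0.0315, and 0.0767 to 0.236 in that fit once any 1 line was left out.

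TRAF1 counts in lines 6, 7 and 8 were 2421, 2188 and 2505 in the controls. With IL-1β they were 1481, 1426 and 1676, and with IL1Ra added they were 2176, 2172 and 2079. As in the first batch, all stimulated cultures were below all controls, and here the IL1Ra cultures were all above the cultures with IL-1β alone. The log2 difference of IL-1β from control was -0.64 (SE 0.138, adjusted p = 0.121), with an adjusted p value of 0.0421 with the line as a block, and of 0.108 to 0.366 in that fit once any 1 line was left out.

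BIRC3, TNIP1 and MAP3K8 were higher with IL-1β in 3 of 3 lines but did not pass the test. BIRC3 counts in lines 6, 7 and 8 were 725, 7268 and 15133 in the controls, and 5281, 14466 and 43527 with IL-1β. The stimulated culture of line 6 was below the controls of lines 7 and 8, so the groups overlapped in part. The log2 fold change of 1.79 had a 95% confidence interval of -1.72 to 5.31 (adjusted p = 0.776). With the line as a block the interval was 0.52 to 3.07 (adjusted p = 0.106). TNIP1 counts in lines 6, 7 and 8 were 3808, 6718 and 5514 in the controls, and 4901, 28959 and 26896 with IL-1β. Line 6 thus hardly moved, by 0.36 on the log2 scale, where lines 7 and 8 differed by 2.11 and 2.29. The fitted change was 1.59 (adjusted p = 0.489). Without line 6, the line that moved least, it was 2.20 and DE (adjusted p = 0.0255). The fit without line 6 called 213 of 16707 genes DE and higher, whereas no gene was DE without line 7 or without line 8. With all lines and the line as a block, the 95% confidence interval was 0.69 to 2.49 (adjusted p = 0.0576). MAP3K8 counts in lines 6, 7 and 8 were 243, 62.7 and 49.9 in the controls, and 552, 234 and 205 with IL-1β. The order of the lines was the same in both conditions, and the log2 fold change was 1.69 (SE 0.631, adjusted p = 0.348). Its 95% confidence interval with the line as a block was 0.74 to 2.64 (adjusted p = 0.0557).

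The remaining 4 genes did not pass the test in the second batch either. TNFAIP2 counts in lines 6, 7 and 8 were 1404, 3115 and 3449 in the controls, and 4281, 2384 and 2475 with IL-1β. It was higher with IL-1β in line 6 alone, so 1 line of each batch went against the others of its batch, and the log2 fold change was 0.25 (95% confidence interval -0.62 to 1.11). The log2 fold changes of CYLD, TNIP2 and BCL3 were -0.01, -0.13 and 0.16, and their directions differed between lines. The intervals of these 3 reached from -0.69 to 1.00 and so left room for a change of up to about the fold threshold.

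The second batch also asks what IL1Ra, which blocks the receptor that IL-1β binds, did to these genes in the presence of IL-1β. No gene of the 10 was DE between IL-1β plus IL1Ra and IL-1β alone, against 0.0% of the 16705 genes tested by limma. The paper does report DE genes for this comparison, from DESeq2. As the limma fit called no gene of the table, the missing calls do not show that IL1Ra changed nothing. Of the 10, 3 (TNFAIP3, NFKBID and TRAF1) passed an unadjusted p value of 0.05, against 2.78% of all genes. TNFAIP3 was lower with IL1Ra in 3 of 3 lines, with log2 differences from -2.14 to -1.73. The fitted difference was -1.96 (95% confidence interval -3.19 to -0.73, adjusted p = 1.00), with an adjusted p value of 0.152 with the line as a block. The NFKBID difference was -0.69 (95% confidence interval -1.26 to -0.12) and it was lower in 3 of 3 lines. The TRAF1 difference was 0.49 (95% confidence interval 0.17 to 0.81) and it was higher in 3 of 3 lines.

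**Figure D3:**
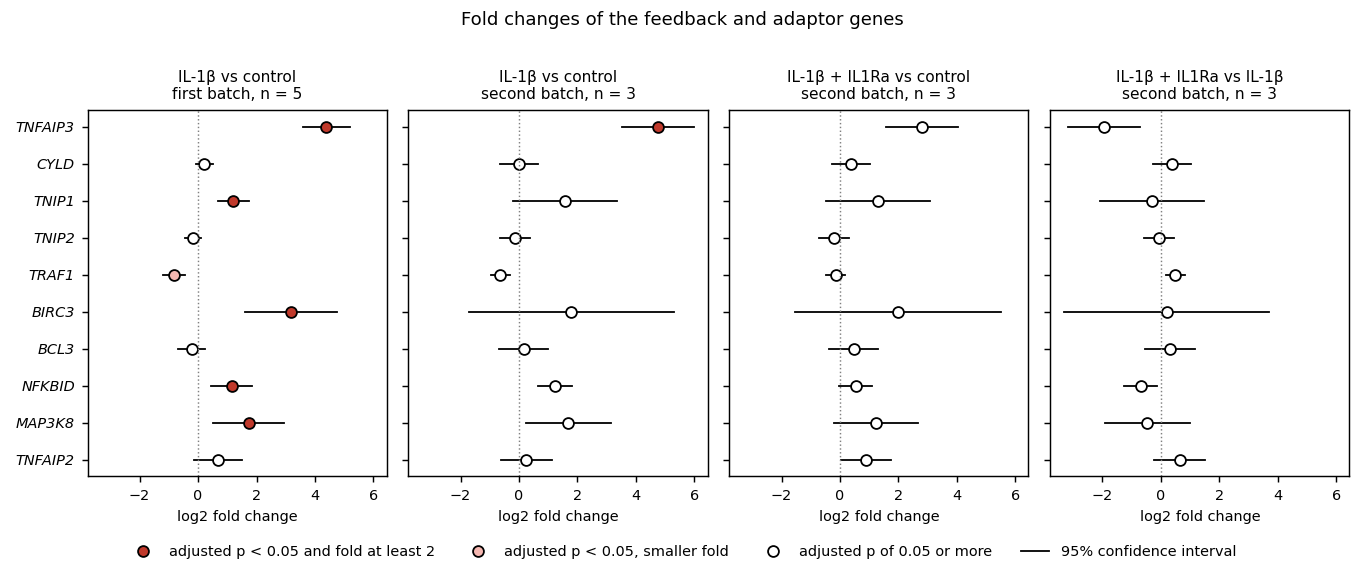
Log2 fold changes of the 10 genes in the 4 comparisons, with limma 95% confidence intervals as horizontal lines. Filled red points were DE, pale red points passed the adjusted p value with a smaller fold, and open points did not pass; the widest intervals were those of BIRC3 in the second batch.

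Against control, the IL1Ra cultures still held more TNFAIP3 in 3 of 3 lines, by 1.96 to 3.50 on the log2 scale. The fitted difference was 2.79 (SE 0.537, adjusted p = 0.34). With the line as a block it was DE (adjusted p = 0.0267), which made 1 of the 10 against 0.21% of all genes, and it was not called in that fit without line 7 (adjusted p = 0.472) or line 8 (adjusted p = 0.273). Without the block, no gene of the 10 was DE against 0.012% of all genes, and 2 of the 10 (TNFAIP3 and TNFAIP2) passed an unadjusted p value of 0.05 in limma, against 5.67% of all genes. With the block 4 of the 10 passed it, against 13.4% of all genes, and they were TNFAIP3, BIRC3, TNIP1 and MAP3K8, without TNFAIP2. NFKBID remained 0.54 above control (95% confidence interval -0.03 to 1.11) and TRAF1 differed by -0.14 (95% confidence interval -0.46 to 0.17).

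BIRC3 counts with IL1Ra in lines 6, 7 and 8 were 2079, 57251 and 42028. In line 6 this was below the culture with IL-1β alone, in line 8 about level with it, and in line 7 it was 1.98 higher on the log2 scale, so the fitted difference from IL-1β alone was 0.20 (95% confidence interval -3.32 to 3.71). Against control, BIRC3 with IL1Ra was higher in all 3 lines, and the fitted log2 difference was 1.99 (95% confidence interval -1.52 to 5.50, or 0.72 to 3.26 with the line as a block, adjusted p = 0.199 in that fit). TNIP1 counts with IL1Ra were 5178, 16784 and 23955, and MAP3K8 counts were 229, 272 and 161. TNIP1 was lower than with IL-1β alone in lines 7 and 8, and MAP3K8 in lines 6 and 8. Against control, TNIP1 with IL1Ra was higher in 3 of 3 lines, by 1.29 (95% confidence interval -0.48 to 3.07, or 0.39 to 2.20 with the block, adjusted p = 0.227 in that fit). The same difference for MAP3K8, higher in 2 of 3 lines, was 1.23 (adjusted p = 0.951, or 0.261 with the block). TNFAIP2 counts with IL1Ra were 3797, 5435 and 4665, each above all 3 controls. The log2 difference of TNFAIP2 from control was 0.89 (95% confidence interval 0.03 to 1.76, adjusted p = 0.87). CYLD, TNIP2 and BCL3 differed from control by 0.37, -0.20 and 0.47 on the log2 scale, and none passed the test.

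The wider NF-κB pathway was described with a list of 43 other genes in 5 roles, of which 42 were measured and tested and RNF31 was not analysed here. In the first batch 10 of the 42 were DE and higher with IL-1β and 1 was DE and lower, where the background shares are those given above. The list was chosen with earlier results of these data known, so its counts beside these shares are a description. The median log2 fold change of the list was 0.24. The largest increases were those of ZC3H12A, which encodes the RNA-degrading enzyme Regnase-1 (3.70, SE 0.116, adjusted p = 6.45e-08), and NFKBIZ, which encodes another nuclear IκB protein (3.40, SE 0.142, adjusted p = 7.1e-07). ZC3H12A counts spanned 642 to 911 in the controls and 9159 to 12685 with IL-1β. The first-batch log2 fold change of TNFAIP3 was larger than that of every gene of this list, and that of BIRC3 was exceeded only by this pair. These differences between genes were not tested.

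All 4 IκB genes of this list passed the adjusted p value upward, NFKBIZ and NFKBIA (1.66) as DE and NFKBIB (0.79) and NFKBIE (0.65) with smaller changes. Of the 5 NF-κB subunit genes, NFKB2 (1.88), NFKB1 (1.59) and RELB (1.11) were DE, while RELA, the p65 subunit, was at 0.06 and did not pass. Of the 6 genes listed for the IKK complex, related kinases and their partners, IKBKE was DE (2.04). TBK1 (0.94) and IKBKB (0.24) passed the adjusted p value, and CHUK, IKBKG and TANK did not. Of the 15 receptor adaptor and kinase genes, IRAK2 (1.76) and IRAK3 (1.28) were DE upward. TRAF5, a relative of TRAF1, was DE downward (-1.81, SE 0.427, adjusted p = 0.0105), from 25.2 to 80.9 normalised counts in the controls and 5.82 to 20.8 with IL-1β. TRAF2 (0.98), TRAF3 (0.90) and IRAK4 (0.35) passed the adjusted p value upward with smaller changes. IRAK1 (-0.63, adjusted p = 0.003) and MAP3K7 (-0.59, adjusted p = 0.00241), kinases of the IL-1 receptor route, passed it downward and were lower in 5 of 5 lines. Of the 12 other ubiquitin enzymes and partners measured, ZC3H12A and BIRC2, the close relative of BIRC3 (1.01, SE 0.267, adjusted p = 0.0177), were DE, and OTUD7B, a deubiquitinase, passed the adjusted p value downward (-0.50, adjusted p = 0.00886). TNIP3, the third A20-binding partner, had a log2 fold change of 0.43 (adjusted p = 0.529).

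**Figure D4:**
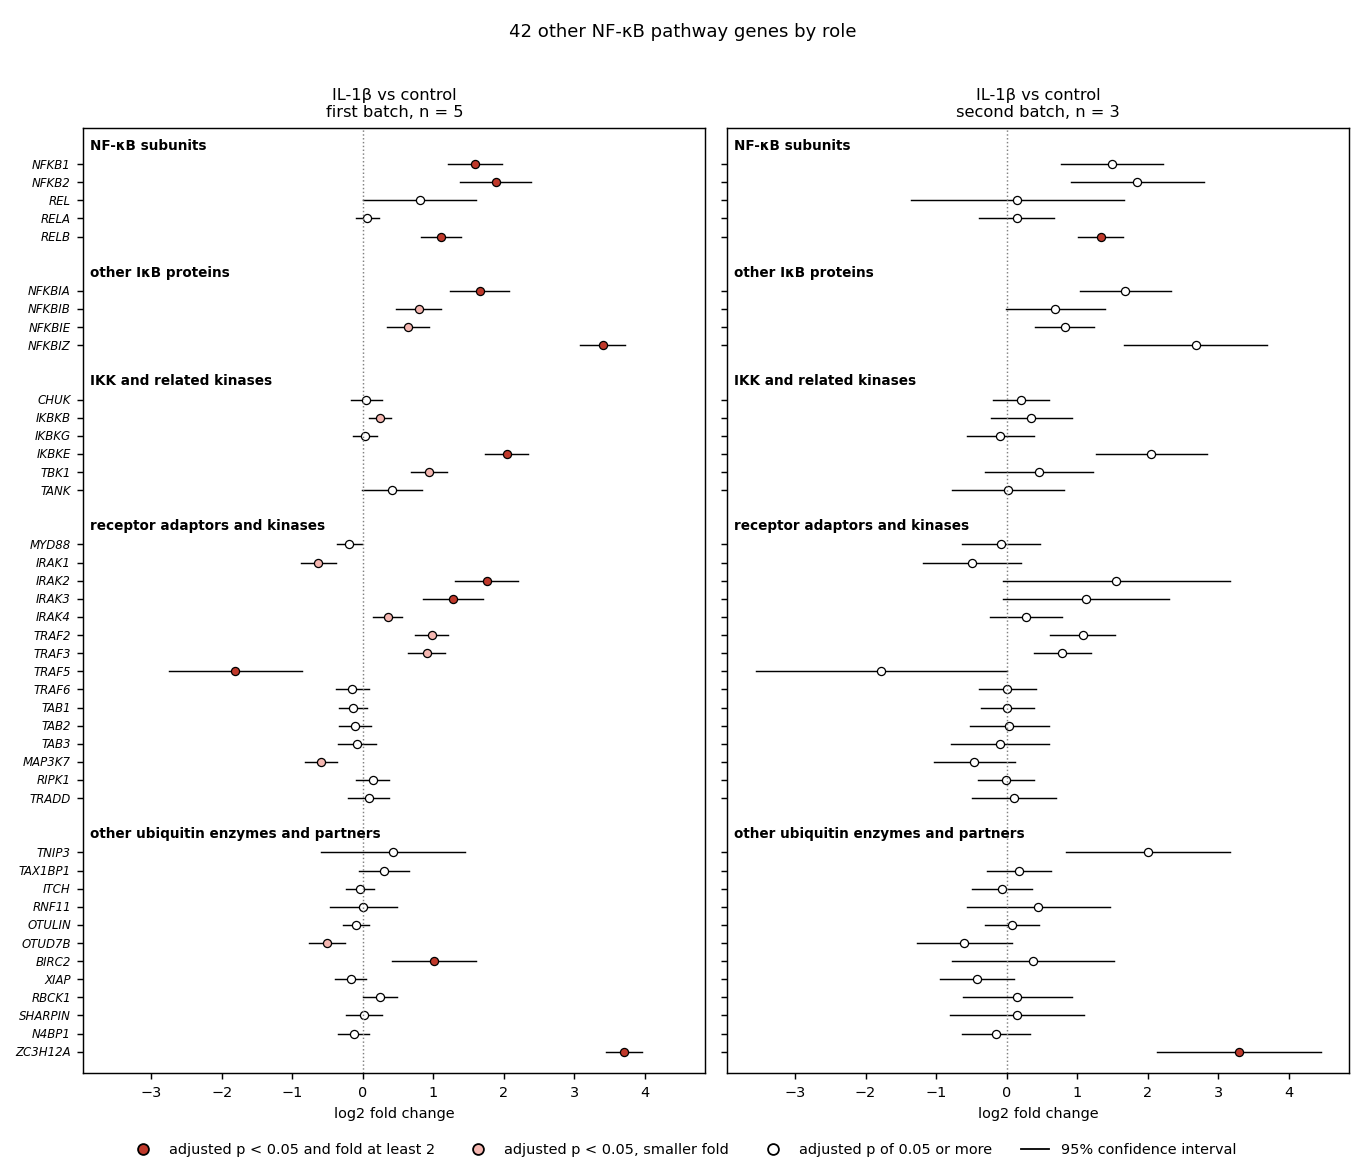
Log2 fold changes of IL-1β against control for the 42 other pathway genes, grouped by role, in the first batch (left) and the second batch (right), with limma 95% confidence intervals as horizontal lines and the same point colours as for the 10 genes. ZC3H12A and NFKBIZ lay furthest to the right in both batches and TRAF5 furthest to the left.

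In the second batch 2 of the 42 were DE and higher with IL-1β, ZC3H12A (3.29, SE 0.509, adjusted p = 0.0493) and RELB (1.33, SE 0.141, adjusted p = 0.0155), and none was DE and lower, where 0.269% of all genes were DE and higher. With the line as a block 9 were, against 2.59% of all genes: these 2 with NFKBIZ (2.68), IKBKE (2.05), TNIP3 (2.01), NFKB2 (1.85), NFKBIA (1.68), NFKB1 (1.49) and TRAF2 (1.08). The median log2 fold change of the list was 0.17. With IL1Ra added, none of the 42 was DE against control or against IL-1β alone, and 11 and 3 of them passed an unadjusted p value of 0.05 in limma, against the 5.67% and 2.78% of all genes given above. With the line as a block, ZC3H12A (2.36, adjusted p = 0.0161), NFKBIZ (2.43, adjusted p = 0.0267) and IKBKE (1.25, adjusted p = 0.0267) were DE against control, 3 of the 42 against 0.21% of all genes. RELB counts in lines 6, 7 and 8 were 851, 809 and 780.3 in the controls, 1861, 2199 and 2103 with IL-1β, and 1737, 1592 and 1528 with IL1Ra added. Its 3 conditions did not overlap, in the same order as those of TNFAIP3.

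For 4 of the 10 genes, the named genes most alike in pattern were sought among 12342 genes by Pearson's correlation of log2(normalised count + 1) over the 10 first-batch libraries, all of which share the IL-1β contrast. For TNFAIP3 they were PNKD (r = 0.993), RASL12 (0.987) and SDC4 (0.986), with r of 0.944, 0.916 and 0.871 over the 9 second-batch libraries. For BIRC3 they were CCL5 (0.984), AKIRIN1 (0.984) and SH3BGRL (0.98), with 0.953, 0.879 and 0.925 in the second batch. For TRAF1 they were CWC27 (0.983), EXOC6 (0.968) and AFTPH (0.968), with 0.423, 0.890 and 0.761. For TNFAIP2 they were CHD4 (0.886), PJA1 (0.871) and ASCC3 (0.857), whose likeness was mostly not seen in the second batch (r = 0.073, -0.017 and 0.411).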

How the data were processed

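Per the study's methods, the authors quantified the paired-end reads with Salmon against EquCab3.0 and normalised gene counts with DESeq2 1.36, for each batch on its own. The deposited values are thus normalised counts, used here as a signal that cannot be turned back into raw reads, so no count model was fitted. Genes with at least 10 normalised counts in as many libraries as a group holds (5 or 3) were tested on log2(value + 1) by the limma package (version 3.58.1, R 4.3.3; lmFit, then eBayes with a mean trend) and adjusted after Benjamini-Hochberg. The second-batch fit held all 3 conditions. The test was tried first on simulated data with a fixed size of change in the IL-1β libraries, a trial that does not cover smaller changes. Library names gave the donor line, and libraries of the same line deviated together (r = 0.351 to 0.578 over 5 first-batch pairs and 0.535 to 0.794 over 9 second-batch pairs, against -0.356 to 0.288 and -0.625 to 0.249 between lines). Deviations were taken from condition means. Positive values within lines then make those between lines lean negative, so the contrast is partly built in. The main fit held no line term, as the paper states none, and so ignored the pairing of cultures by line. The line as a block was fitted as an alternative. The SE of BIRC3 for IL-1β in the second batch was 1.53 without and 0.544 with the block. For TNFAIP2 in the first batch it was 0.372 and 0.427. Other alternatives changed the added constant, the low-value filter, the scaling and the trend, and left out each line. Lines stand for donors, and no 2 libraries held identical values. The named genes were the 10 members, the 2 highest and 2 lowest DE genes of the pathway list per comparison, and the 3 genes most alike in pattern for 4 members. Other genes of the pathway list were named after their values were seen. Members and lists were chosen with earlier results of these data known. The only reference given was a gene name table of a newer horse assembly, so no coordinates or sequences are printed.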

Additional observations from a re-analysis of the deposited data

Results flagged for a closer look

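In 20 groups of 5 first-batch libraries (10 genes, control and IL-1β), 4 had 1 library that stood apart from the others by Dixon's 95% criterion on normalised counts. The criterion's chance rate of about 1 group in 20 holds for normally distributed values. It was not applied to the log2 values used in the fits, so the count of 4 does not show an excess over chance. The line 1 control held 4659.7 TNFAIP2 counts, with the next control at 1704, and its gap was 0.845 of the range against a critical value of 0.71. The line 3 control held 5705 TRAF1 counts, with the next at 4255 (0.726 of the range). Among the IL-1β libraries, line 1 held 64249 BIRC3 counts, with the next at 25777 (0.716), and line 3 held 1651 MAP3K8 counts, with the next at 411 (0.842). The second-batch groups of 3 were not tested in this way.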

How the results depend on the processing

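The directions and calls of the 10 genes in the first batch were the same under another added constant (0.5 or 5), no low-value filter or one at 50, total or upper quartile scaling, no trend and the line as a block, and counts of DE genes spanned 3 to 5 when 1 line was left out. Over all genes, 546 to 893 were DE and higher in first-batch fits without 1 line, with or without the block. In the second batch the block took the DE genes from 1 to 2 for IL-1β and from 0 to 1 for IL-1β plus IL1Ra against control, and changed no other DE call of the 10. Leaving out 1 line, with or without the block, gave 0 to 3 for both and 0 to 1 for IL-1β plus IL1Ra against IL-1β. The calls over all genes moved in the same fits. For IL-1β they went from 0 without line 7 to 662 higher and 759 lower of 16707 genes without line 6 with the block. That last fit called 316 higher and 221 lower for IL-1β plus IL1Ra against control, and 134 and 38 against IL-1β. The alternatives with the block and a line left out were chosen after seeing the data. For the pathway list, the first-batch count was 21 by the adjusted p value alone, 17 higher and 4 lower, against 27.7% of all genes in either direction. The second-batch count for IL-1β was 1 with a constant of 0.5, with no filter or with no trend, 0 when only both conditions compared were fitted, 9 with the block, and 0 to 9 without 1 line. Over all genes, those DE and higher with IL-1β numbered 45 in the main fit and 42, 31 and 26 with the constant of 0.5, no filter and no trend. They numbered 28 with only both conditions fitted and 432 with the block. For IL-1β plus IL1Ra against control the count of the list was 3 with the block, where 0.21% of all genes were DE and higher, and 0 to 4 without 1 line. Scaling to library totals moved the median of all genes in the second batch to -0.19 (IL-1β against control), -0.07 (IL-1β plus IL1Ra against control) and 0.11 (against IL-1β), and turned BCL3 to -0.023 in the first of these and TNIP2 to 0.037 in the last. Without 1 line, the IL-1β change spanned -0.17 to 0.12 for CYLD, -0.10 to 0.53 for BCL3 and -0.43 to 0.61 for TNFAIP2, and the difference between IL-1β plus IL1Ra and IL-1β spanned -0.17 to 0.13 for TNIP2 and -0.70 to 0.97 for BIRC3. The cause of these changes was not tested. With 3 lines and donor SDs as wide as those of BIRC3, a missing call in the second batch is not evidence of no change.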
